A study of Mus musculus with 6 samples.

Results

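Amino acids and small peptides cross membranes through solute carriers of several families, and 56 genes of 8 such families were examined here in tuft cells of the mouse ileum. The members were taken by symbol, as every gene of the Slc1a, Slc3a, Slc7a, Slc15a, Slc36a, Slc38a and Slc43a families and 8 genes of the Slc6a family, out of 23420 genes in the table. Of these 56 symbols, 55 name transporters or transporter subunits, while Slc7a6os names a gene that lies next to Slc7a6 on the opposite strand and encodes no transporter. The labels do not give the age of the donors, and the study's methods give only a range of weeks for its mice. These donors were C57BL/6J mice of the genotype Gfi1b-eGFP/+. In them green fluorescent protein is made from 1 allele of Gfi1b, a transcription factor gene that is active in tuft cells among epithelial cells. GFP-positive, EpCam-positive, CD45-negative and propidium iodide-negative cells of the distal small intestine were sorted, and full-length cDNA made by a modified SMART-Seq2 method was sequenced for 6 mouse replicates. The 6 libraries form 1 group with no treatment and no second cell type, so the comparisons below are between genes within a library and across libraries of that group.

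In the small intestine, absorptive enterocytes take up amino acids at the apical brush border, mainly through sodium-coupled carriers for neutral amino acids, a proton-coupled carrier for di- and tripeptides and an exchanger for cystine and basic amino acids. They pass them to the blood through exchangers and uniporters of the basolateral membrane. Several of the exchangers are heteromers, in which a multipass light chain of the Slc7a family is bound by a disulfide bridge to a single-pass heavy chain, Slc3a1 or Slc3a2. Cells also use carriers such as Slc1a5 and Slc38a2 to feed their own metabolism, and carriers on the lysosome return amino acids from degraded protein to the cytosol and report their level to the kinase mTORC1. Tuft cells are known as chemosensory cells with a tuft of thick microvilli, not as absorptive cells.

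Expression was deposited as TPM, a share of all transcripts that is corrected for transcript length, so that levels of different genes in 1 library may be compared where reads cover whole transcripts. The labels list a 3' polyA and a droplet preparation beside SMART-Seq2 for every library, while the study's methods describe full-length cDNA. If reads came from 3' ends only, the length correction would bias levels between genes, and with them the gene pairs below, which was not tested. TPM keeps no read number, and the depth of the libraries and hence a detection limit are unknown. Of the genes in the table, 13044 to 13308 were listed above 0 in a library. The ribosomal RNA precursor Rn45s took 23.1% to 32.6% of the TPM, and Gm20594 lay at 15588 to 21283 TPM in replicates 1 to 3 and at 51804 to 56441 TPM in replicates 4 to 6, although the labels name no batch. The defining tuft cell genes were present in every library. Of 14 such markers 13 were found, all above 0 in all libraries, with a summed level of 6059 to 10221 TPM, among them the cation channel gene Trpm5 and the kinase gene Dclk1. Markers of other epithelial cells were present as well, with summed levels of 8057 to 16800 TPM for 12 enterocyte genes, 4089 to 26976 TPM for 7 Paneth cell genes, 1053 to 5118 TPM for 7 goblet cell genes, 379.2 to 536.5 TPM for 9 enteroendocrine genes and 348.1 to 831.2 TPM for 7 stem cell genes, and none of these genes was at 0 in all libraries. The most abundant of each list were Fabp1, Fabp6 and Apoa1 for enterocytes, Defa24, Defa22 and Defa17 for Paneth cells, Zg16, Tff3 and Spink4 for goblet cells, Sct, Gcg and Chgb for enteroendocrine cells and Olfm4, Lgr5 and Smoc2 for stem cells. For 8 T lymphocyte genes the sum was 124.5 to 303.4 TPM, led by Ptprc, Gzma and Gzmb at 112.3, 68.3 and 13.9 TPM on average. Cd3e, Cd3d, Cd3g and Cd8a of that list averaged only 4.38, 2.26, 6.95 and 2.83 TPM. In the enteroendocrine list Sct averaged 383.8 TPM and Gcg, the next, 18.2 TPM. A list's sum can thus rest on few genes and is no measure of a cell type. In such bulk samples, few cells with much of an RNA and many cells with little of it cannot be told apart, and the part that other cell types had in the levels below was not tested beyond the 4 relations given.

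The set as a whole was neither rare nor unusually abundant among the genes of the table. Of the 56 members, 32 (57.1%) were listed above 0 in all 6 libraries, against 47.2% of all genes. A mean of at least 1 TPM was reached by 32 members (57.1%), against 51.4% of all genes, and a mean of at least 10 TPM by 16 members (28.6%), against 29.8% of all genes. In every library 13 members (23.2%) were listed at 0, against 32.9% of all genes. The 55 transporters together had 723.0 ± 65.0 TPM (SD, n = 6), from 603.1 to 782.4 TPM. The 5 most abundant, Slc1a5, Slc6a6, Slc7a9, Slc6a8 and Slc3a2, held between 49.8% and 55.6% of that sum in each library, with a median of 53.5%. The plot of all members with stable detection gives the order of the levels.

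**Figure D1:**
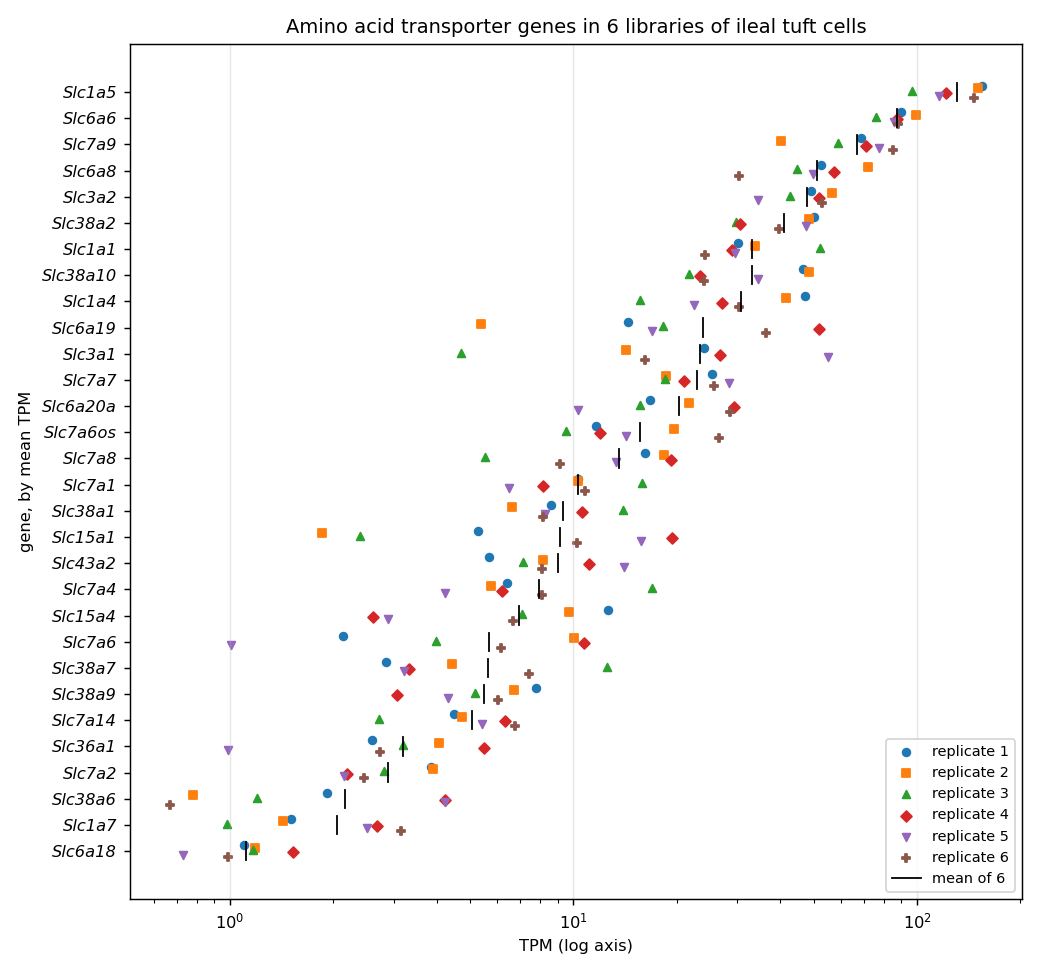
TPM on a log axis of the 30 members that had a mean of at least 1 TPM and were listed above 0 in all 6 libraries, ordered by mean; each symbol is 1 library and the black bar is the mean of the 6. Slc1a5 leads, Slc6a6 is tightly grouped between 75.7 and 99.4 TPM, and Slc6a19, Slc3a1 and Slc15a1 are spread over about an order of magnitude.

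The most abundant single member was a carrier with which cells supply themselves. Slc1a5, the sodium-dependent exchanger ASCT2 that brings in glutamine and other small neutral amino acids (chromosome 7 of GRCm38, 16781340 to 16798274, plus strand), was at 154.4, 150.3, 96.4, 121.6, 116.2 and 146.8 TPM in replicates 1 to 6. It was lowest in replicate 3 and the most abundant member in every library, with a mean of 131.0 ± 23.1 TPM (SD, n = 6) that placed it between the 90.8th and 95.0th percentile of the genes listed above 0. Its paralog Slc1a4, the exchanger ASCT1 for alanine, serine, cysteine and threonine (chromosome 11, 20302180 to 20332713, minus strand), was at 47.2, 41.6, 15.6, 27.1, 22.4 and 30.3 TPM. Slc1a5 exceeded Slc1a4 in 6 of 6 libraries, by 2.13 ± 0.321 on the log2(TPM + 1) scale (SD, n = 6), and the ranges of the 2 genes did not overlap. The TPM of Slc1a5 was 3.27 to 6.18 times that of Slc1a4, with the widest gap in replicate 3, where Slc1a4 was lowest.

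Of the sodium-coupled carriers of the Slc38a family, Slc38a2 (SNAT2), which is known to be induced when amino acids are scarce, led over Slc38a1 (SNAT1). Slc38a2 was at 50.2, 48.4, 29.6, 30.6, 47.6 and 39.7 TPM in replicates 1 to 6, and Slc38a1 was at 8.58, 6.61, 13.9, 10.6, 8.26 and 8.14 TPM. Slc38a2 was higher in 6 of 6 libraries, by 2.02 ± 0.642 on the log2 scale (SD, n = 6). The gap was smallest in replicate 3, where Slc38a2 was lowest and Slc38a1 highest. Slc38a10, a member of the same family whose transport role is less well described, was at 46.6, 48.4, 21.8, 23.4, 34.5 and 24.0 TPM, with replicates 1 and 2 above the rest. The remaining carriers of this kind, Slc38a3, Slc38a4 and Slc38a5, were listed at 0 in all libraries.

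For each of 8 gene pairs the signs of the within-library differences were flipped in all possible ways (exact permutation, two-sided), and p was adjusted over the pairs after Benjamini and Hochberg. With 6 libraries p cannot fall under 0.03125. In 7 of the 8 pairs 1 gene was higher in 6 of 6 libraries, and each of these reached that exact permutation p, 0.03125, with an adjusted p of 0.0357. As the pairs had been chosen with earlier results of these data known, these p restate the order of the levels and are no independent evidence for it. The pairs beside that of Slc1a5 and Slc1a4 and that of Slc38a2 and Slc38a1 are described with their members below.

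**Figure D2:**
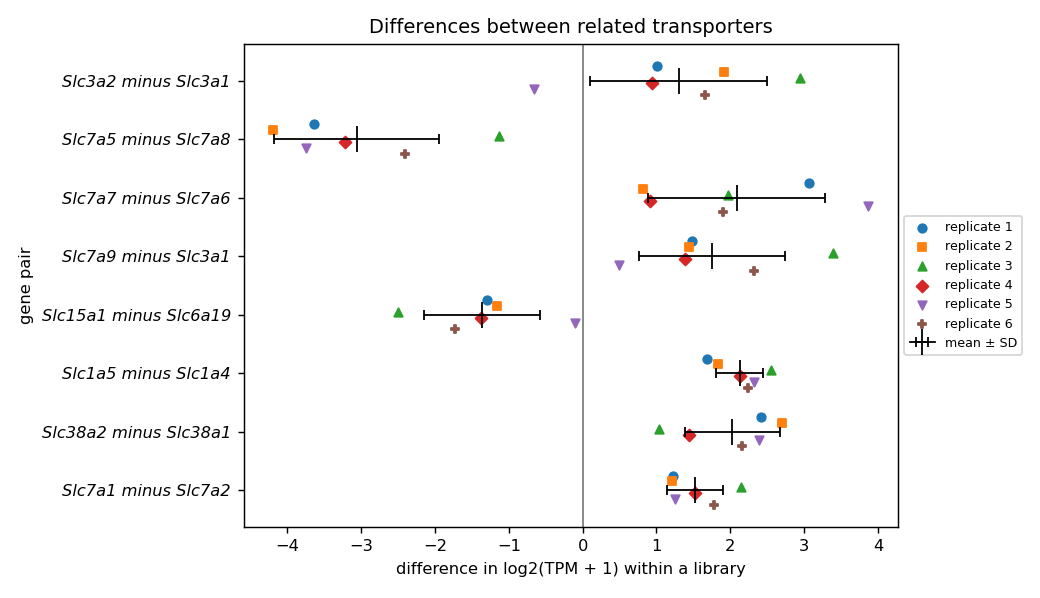
Difference in log2(TPM + 1) between 2 related transporters within each of the 6 libraries, with the mean and SD in black; values above 0 mean that the first gene was higher. In 7 of the 8 pairs all 6 libraries lie on the same side of 0, while Slc3a2 minus Slc3a1 has replicate 5 on the other side, and Slc15a1 minus Slc6a19 comes close to 0 in replicate 5.

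Slc6a6 and Slc6a8, which carry compounds that are related to amino acids but are not built into protein, were the second and the fourth most abundant members by mean. Slc6a6, the sodium- and chloride-dependent taurine transporter (chromosome 6, 91684053 to 91759066, plus strand), was at 89.7, 99.4, 75.7, 87.4, 85.9 and 87.9 TPM in replicates 1 to 6. Its coefficient of variation (the SD as a share of the mean) was 8.65%, and only 0.444% of the 6986 genes that averaged 10 TPM or more had a smaller one. The creatine transporter Slc6a8 on the X chromosome (73673150 to 73682502, plus strand) was at 52.4, 71.8, 44.8, 57.2, 49.9 and 30.2 TPM, highest in replicate 2 and lowest in replicate 6, with a mean of 51.1 ± 13.8 TPM (SD, n = 6). Genes of taurine synthesis were less abundant than the taurine transporter, with 15.8 ± 5.84 TPM of Cdo1, which oxidises cysteine, and 5.82 ± 3.20 TPM of Csad, the decarboxylase that follows it (SD, n = 6).

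The heavy chain Slc3a2 and its light chains had similar summed levels, and 2 light chains made up most of the sum. Slc3a2, also known as the surface antigen 4F2 heavy chain (chromosome 19, 8706882 to 8723369, minus strand), was at 49.0, 56.4, 42.8, 52.0, 34.5 and 53.0 TPM in replicates 1 to 6. The 6 light chains that are known to pair with it, Slc7a5, Slc7a6, Slc7a7, Slc7a8, Slc7a10 and Slc7a11, together had 45.4, 47.4, 31.1, 52.7, 43.0 and 42.7 TPM. This sum was chosen after the levels had been seen, and its ratio to Slc3a2 lay between 0.725 in replicate 3 and 1.25 in replicate 5, with a median of 0.884. Slc7a7 and Slc7a8 held 76.2% to 96.9% of it.

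Slc7a7, the light chain y+LAT1 that exports basic amino acids from epithelial cells in exchange for neutral ones (chromosome 14, 54369442 to 54417780, minus strand), was at 25.3, 18.6, 18.4, 21.0, 28.4 and 25.7 TPM. Its close relative Slc7a6 (y+LAT2) was at 2.14, 10.1, 3.98, 10.7, 1.01 and 6.15 TPM. Slc7a7 was higher in 6 of 6 libraries, by 2.09 ± 1.2 on the log2 scale (SD, n = 6). The 2 genes did not overlap in level, and the size of the gap followed Slc7a6, which varied far more than Slc7a7 did. An exon overlap on the opposite strand with Oxa1l, a mitochondrial gene at 29.4 TPM, covers 7.0% of the exon bases of Slc7a7 in GENCODE M21, and the strand setting of the authors' counting is not given in the sources used here.

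Of the exchangers of large neutral amino acids, LAT2 had more RNA than LAT1, which was low but above 0 in all 6 libraries. Slc7a8 (LAT2), a basolateral exchanger of epithelia (chromosome 14, 54722209 to 54781946, minus strand), was at 16.2, 18.3, 5.52, 19.2, 13.3 and 9.15 TPM in replicates 1 to 6, lowest in replicate 3. Slc7a5 (LAT1), which is known from proliferating cells, activated lymphocytes and the blood-brain barrier, was at 0.38, 0.06, 1.97, 1.16, 0.06 and 0.91 TPM, highest in replicate 3. Slc7a8 was higher in 6 of 6 libraries, and the difference of Slc7a5 minus Slc7a8 was -3.06 ± 1.12 on the log2 scale (SD, n = 6). The TPM of Slc7a8 was 2.80 times that of Slc7a5 in replicate 3 and 305.7 times in replicate 2, a spread that comes from values of Slc7a5 close to 0. Slc43a2 (LAT4), a basolateral uniporter for branched-chain amino acids and phenylalanine, had 9.03 ± 3.01 TPM (SD, n = 6) and ranged from 5.68 to 14 TPM, while its relative Slc43a1 (LAT3) was above 0 only in replicate 4, at 1.21 TPM. Slc16a10, the basolateral uniporter of aromatic amino acids from another family, had 21.2 ± 3.41 TPM (SD, n = 6).

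**Figure D3:**
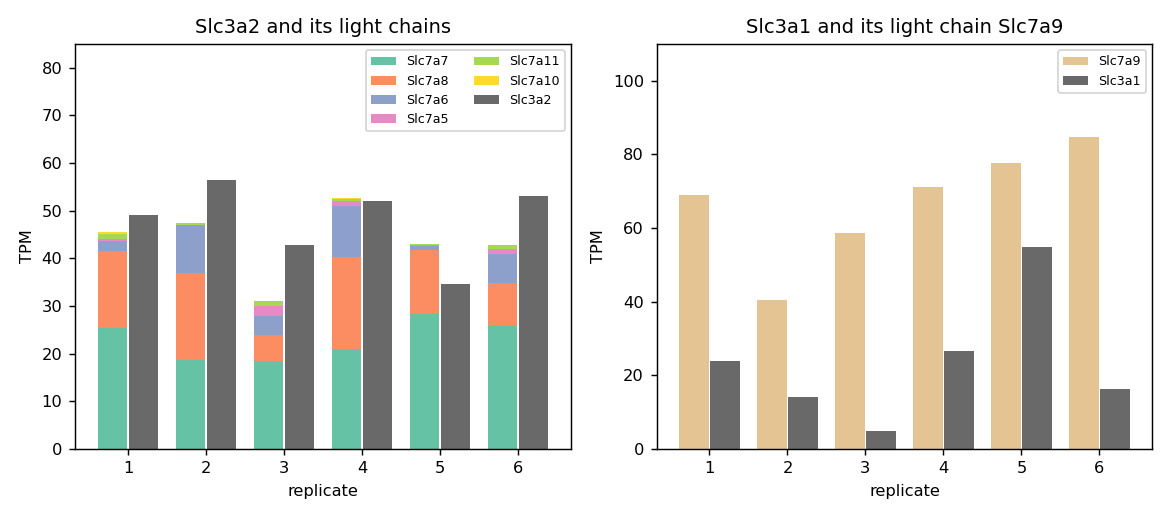
TPM by library of the heavy chains (grey bars) and of their light chains, with the 6 light chains of Slc3a2 stacked in the left panel and Slc7a9 in the right panel. The stack of light chains is between 0.725 and 1.25 times as high as Slc3a2, whereas Slc7a9 is higher than Slc3a1 in all 6 libraries.

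The other heteromer, the apical exchanger that takes up cystine and basic amino acids, showed a different balance of its chains. Slc7a9, its light chain (chromosome 7, 35448796 to 35466036, plus strand), was at 68.9, 40.3, 58.8, 71.3, 77.6 and 84.8 TPM in replicates 1 to 6 and was the third most abundant member by mean. Slc3a1, its heavy chain (chromosome 17, 85028376 to 85064236, plus strand), was at 24.0, 14.2, 4.72, 26.6, 54.9 and 16.2 TPM. Slc7a9 exceeded Slc3a1 in 6 of 6 libraries, by 1.75 ± 0.988 on the log2 scale (SD, n = 6). Their ratio ran from 1.41 in replicate 5 to 12.5 in replicate 3, with a median of 2.86, and the 2 ranges overlapped between libraries though not within any. Slc3a1 varied more than most genes of its level, with a coefficient of variation of 73.7% that exceeded those of 96.9% of genes averaging 10 TPM or more. In GENCODE M21, 26.5% of the exon bases of Slc3a1 are shared with Prepl, a gene on the opposite strand at 16.8 TPM, so that reads of the 2 genes cannot be told apart there if strand was not used. Slc7a13, the other light chain known to pair with Slc3a1 in kidney, was listed at 0 in all libraries.

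Between the 2 heavy chains, Slc3a2 was higher in 5 of 6 libraries and Slc3a1 in replicate 5. The difference of 1.30 ± 1.2 on the log2 scale (SD, n = 6) did not pass the threshold (p = 0.0625 and adjusted p = 0.0625, exact permutation), though it did by the exact Mann-Whitney test (adjusted p = 0.0470).

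Among the other carriers of the brush border, those with a known place in absorption were measured at moderate and uneven levels. Slc6a19, the main apical sodium-coupled carrier of neutral amino acids, B0AT1 (chromosome 13, 73679745 to 73704865, minus strand), was at 14.4, 5.37, 18.2, 51.9, 16.9 and 36.3 TPM in replicates 1 to 6. Replicates 4 and 6 were high and replicate 2 was low, and the coefficient of variation was 71.5%. Slc15a1, the proton-coupled carrier PepT1 for di- and tripeptides (chromosome 14, 121459621 to 121505252, minus strand), was at 5.29, 1.86, 2.39, 19.3, 15.7 and 10.3 TPM, lower in replicates 1 to 3 than in replicates 4 to 6. Slc15a1 was below Slc6a19 in 6 of 6 libraries, by -1.36 ± 0.784 on the log2 scale (SD, n = 6), with nearly equal levels in replicate 5. By the exact Mann-Whitney test, which leaves out the pairing within libraries, this difference did not pass (adjusted p = 0.0931).

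Slc6a20a, the carrier of proline and other imino acids, was at 16.7, 21.7, 15.6, 29.3, 10.3 and 28.5 TPM, and its neighbour and paralog Slc6a20b was listed at 0 in replicates 1 to 4 and at 0.07 and 0.08 TPM in replicates 5 and 6. Of the 25-base words in the Slc6a20a transcripts of GENCODE M21, 21.3% also occur in Slc6a20b, so that the split between these genes depends on the authors' assignment of shared reads, yet nearly all signal was assigned to Slc6a20a. Slc1a1 (EAAT3), the apical carrier of glutamate and aspartate on chromosome 19 (28835049 to 28913960, plus strand), was at 30.2, 33.9, 52.3, 28.9, 29.5 and 24.1 TPM, with replicate 3 above the others. Slc36a1, a proton-coupled carrier of glycine, alanine and proline found at the brush border and on lysosomes, had 3.18 ± 1.52 TPM, between 0.99 and 5.50 TPM, and Slc6a18 (B0AT3), known from kidney, had 1.12 ± 0.262 TPM, between 0.73 and 1.53 TPM (SD, n = 6). Slc6a14, a carrier of neutral and basic amino acids that is known from distal gut and lung and is induced in inflammation, was at 19.6 TPM in replicate 4 and at 0, 0.06, 0, 0.49 and 0 TPM in replicates 1, 2, 3, 5 and 6. It was thus found in quantity in 1 library alone. In that library the summed Paneth cell markers were at their highest, 26976 TPM. The mean of the enterocyte markers on the log2 scale was also highest there, 8.04. By sum, however, the enterocyte markers were highest in replicate 1, at 16800 TPM, against 12817 TPM in replicate 4. The part of Paneth cells or enterocytes in the level of Slc6a14 was not tested.

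Since RNA of enterocyte marker genes was present, whatever cells it came from, 4 apical carriers were compared with these markers across libraries. Both the carriers and the markers had been chosen with earlier results of these data known. The mean log2(TPM + 1) of 12 enterocyte markers was used, none of them a member of the set. These markers include Fabp1 at 7410 ± 3269 TPM, Fabp6 at 1892 ± 493 TPM and Apoa1 at 940.6 ± 364.3 TPM (SD, n = 6), and their mean was 7.58, 7.03, 6.75, 8.04, 7.69 and 7.51 in replicates 1 to 6. Slc15a1 rose with the list (Pearson r = 0.909 with an exact permutation p of 0.0111 and, over 4 relations, an adjusted p of 0.0444; Spearman rho = 0.886, exact p = 0.0333, adjusted p = 0.0667; n = 6). Without replicates 2 and 3, the libraries farthest from the median of the list, r was 0.722. With the median of the list in place of its mean, r was 0.686 with an adjusted p of 0.283 by the same exact permutation test. After centring within replicates 1 to 3 and 4 to 6, r was 0.879 with an adjusted p of 0.333 by exact permutation of 36 pairings. So few pairings cannot give an adjusted p under 0.05 beside the p of the other relations, so that p decides nothing. The rank correlation and the median of the list did not pass 0.05 after adjustment. Whether Slc15a1 passed thus depended on how its relation to enterocyte markers was measured.

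For Slc3a1, r was 0.820 (exact permutation p = 0.0375, adjusted p = 0.0750) and rho was 0.943 (exact p = 0.0167, adjusted p = 0.0667; n = 6). The r of Slc3a1 fell to 0.285 without both replicates 2 and 3. Without replicate 2 alone it was 0.839 and without replicate 3 alone 0.590, so that of these libraries replicate 3 weighed more. When libraries were rescaled by median-of-ratios factors r was 0.852, and it was 0.858 when TPM was recomputed without Rn45s and Gm20594, with adjusted p of 0.0472 and 0.0389 by exact permutation. Slc6a19 (r = 0.611, exact permutation p = 0.200, adjusted p = 0.200; rho = 0.371, exact p = 0.497, adjusted p = 0.497) and Slc7a9 (r = 0.631, exact permutation p = 0.179, adjusted p = 0.200; rho = 0.543, exact p = 0.297, adjusted p = 0.396) did not pass the threshold. For Slc6a19 r was 0.562 without replicates 2 and 3, and for Slc7a9 it turned to -0.480. The values of a gene and of the list in 1 library share the scale of that library, and correlations over 6 libraries are imprecise.

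**Figure D4:**
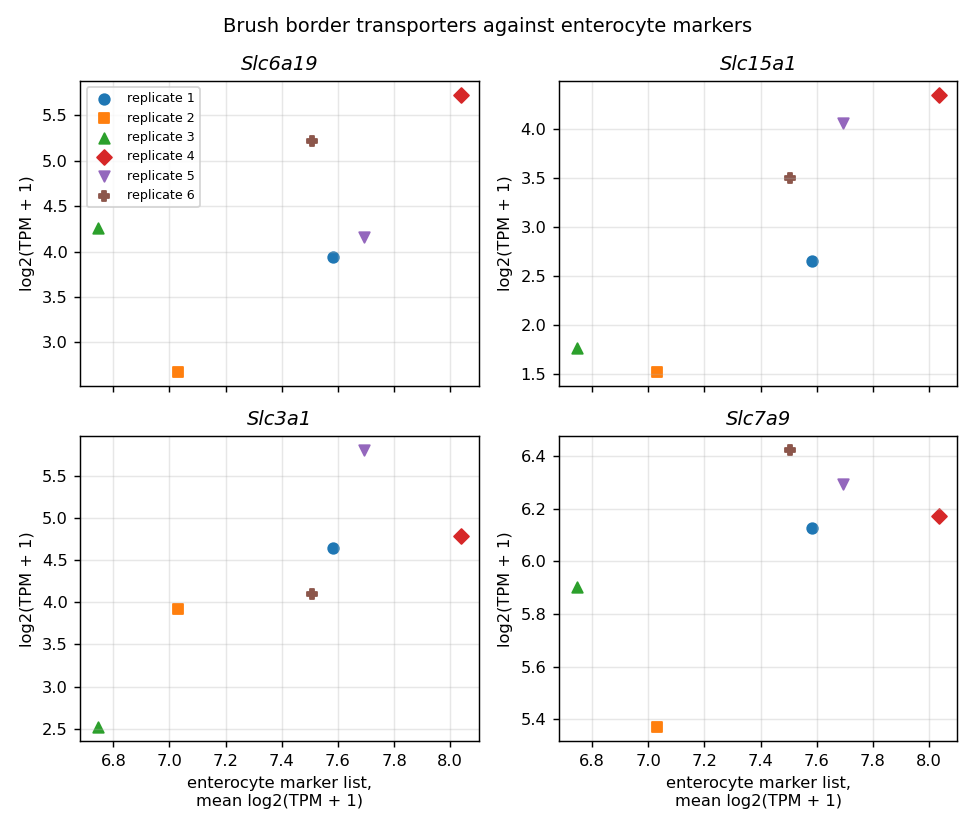
Level of Slc6a19, Slc15a1, Slc3a1 and Slc7a9, as log2(TPM + 1), against the mean log2(TPM + 1) of 12 enterocyte markers, 1 symbol per library. Slc15a1 goes up with the markers over all 6 libraries, and Slc3a1 does so partly through the low value of replicate 3. Slc6a19 has replicate 6 far above replicates 1 and 5 at a like level of the markers.

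RNAs of proteins that work with these carriers were measured too. Tmem27, the partner of Slc6a19 in the kidney, had 0 to 14.3 TPM. Of 15 partner and peptidase genes found, 13 had a mean of at least 10 TPM, against 29.8% of all genes. This list and the other gene lists below were chosen with earlier results of these data known, so such shares are no test of enrichment. Lap3, a cytosolic leucine aminopeptidase, led with 246.1 ± 38.6 TPM (SD, n = 6). Anpep, the brush border aminopeptidase N, had 240.3 ± 109 TPM, and Slc9a3r1, a scaffold protein of microvilli, had 183.0 ± 35.9 TPM (SD, n = 6). No gene of the list was at 0 in all libraries, and the list's sum lay between 923.7 and 1530 TPM, highest in replicate 4.

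Carriers of basic amino acids and cystine for the cell's own use were of low abundance. Slc7a1, the widely expressed arginine and lysine carrier CAT1, was at 10.3, 10.3, 15.9, 8.15, 6.51 and 10.8 TPM in replicates 1 to 6, highest in replicate 3. Slc7a2 (CAT2), known from liver and activated macrophages, was at 3.84, 3.91, 2.80, 2.19, 2.15 and 2.45 TPM. Slc7a1 exceeded Slc7a2 in 6 of 6 libraries, by 1.52 ± 0.379 on the log2 scale (SD, n = 6), and the ranges did not overlap. Slc7a3 (CAT3), known from brain, was above 0 only in replicate 5, at 0.90 TPM. Slc7a4, which resembles these carriers but has no established transport activity, was at 6.42, 5.76, 17.0, 6.21, 4.24 and 8.11 TPM, with replicate 3 above the rest. Slc7a11, the cystine and glutamate exchanger xCT that feeds glutathione synthesis, was above 0 in all libraries but had no more than 1.16 TPM. The genes of glutathione synthesis were more abundant than Slc7a11, with 35.9 ± 20.3 TPM of Gclm, 18.3 ± 6.84 TPM of Gclc and 55.2 ± 11.2 TPM of Gss (SD, n = 6).

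Lysosomal members were all measured below 10 TPM on average. Slc15a4, a carrier of histidine and small peptides that takes part in signalling by endosomal Toll-like receptors, had 6.93 ± 3.87 TPM and ranged from 2.61 to 12.6 TPM, with replicate 1 highest and replicates 4 and 5 lowest. Slc38a9, which senses arginine in the lysosome and passes its level to mTORC1, had 5.51 ± 1.69 TPM, between 3.07 and 7.76 TPM. Slc38a7, an exporter of glutamine and asparagine from the lysosome, had 5.62 ± 3.77 TPM and ranged from 2.85 TPM to 12.5 TPM, the latter in replicate 3. Slc7a14, a carrier of basic amino acids in lysosomes, had 5.08 ± 1.46 TPM, between 2.71 and 6.78 TPM (SD, n = 6 each). Slc36a4 was listed at 0 in 4 libraries and at 1.02 and 0.55 TPM in replicates 4 and 5, and Slc15a3, the relative of Slc15a4 known from macrophages and dendritic cells, was at 0 in all libraries.

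RNA of most listed genes of the machinery to which lysosomal amino acids report was present. Of 23 genes of amino acid sensing and mTORC1 found, 21 had a mean of at least 1 TPM, against 51.4% of all genes. A mean of at least 10 TPM was reached by 13, against 29.8% of all genes. As the list was a chosen one, these shares are no test of enrichment. Rragb and Gatsl3 averaged only 0.198 and 0.227 TPM. The most abundant were subunits of the Ragulator complex, which anchors Rag GTPases to the lysosome, with 253.7 ± 73.0 TPM of Lamtor2, 124.2 ± 32.7 TPM of Lamtor1 and 73.3 ± 20.1 TPM of Lamtor3 (SD, n = 6). Of the Rag GTPases Rraga had 23.3 ± 7.68 TPM, whereas its paralog Rragb had no more than 0.67 TPM in any library. Mtor itself had 9.83 ± 2.15 TPM, and the leucine sensor Sesn2 was between 0 and 2.23 TPM while Sesn1 was between 16.1 and 41.6 TPM.

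Amino acid shortage is known to raise several of these carriers through the transcription factor ATF4. Atf4 had 142.7 ± 18.4 TPM, the highest of 16 genes of this response, followed by Ddit3, the stress factor CHOP, with 40.6 ± 11.1 TPM and Eif2s1, the translation initiation factor whose phosphorylation leads to ATF4, with 32.7 ± 10.8 TPM (SD, n = 6). Asns, the asparagine synthetase gene that ATF4 is known to induce, had 22.8 ± 12.7 TPM (SD, n = 6). Of the 16 genes, 10 averaged 10 TPM or more, against 29.8% of all genes, which in a chosen list is no test of enrichment. Among them were the tRNA synthetase genes Sars with 29.9 ± 9.61 TPM and Aars with 19.7 ± 10.1 TPM (SD, n = 6). The serine synthesis genes Phgdh and Psat1 had 11.9 ± 10.4 TPM and 11.4 ± 5.93 TPM (SD, n = 6). Nupr1, a stress-induced chromatin protein gene, was at 4.83, 2.71, 6.20, 54.5, 57.6 and 51.2 TPM in replicates 1 to 6, so that replicates 4 to 6 lay apart from replicates 1 to 3, as they did for Gm20594. Trib3 at 0 to 0.77 TPM and Chac1 at 0 to 9.69 TPM were lower, as were Cebpb at 0 to 0.59 TPM and Vldlr at 0 to 0.03 TPM. ATF4 is regulated in large part by translation, which RNA levels do not show.

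Enzymes that make or use the glutamine brought in by carriers such as Slc1a5 were measured as well. Glul, glutamine synthetase, had 16.3 ± 4.13 TPM (SD, n = 6). Of 17 genes of glutamine and glutathione metabolism, 13 had a mean of at least 10 TPM, against 29.8% of all genes. This list too was a chosen one, so the share is no test of enrichment. Gsr, Glud1 and Gss were the most abundant at 64.7 ± 41.1, 63.5 ± 33.5 and 55.2 ± 11.2 TPM (SD, n = 6).

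Upstream sequence of members was searched for short motifs as a description, using RefSeq promoters of GRCm38.p6 that run from 250 bases before to 50 bases after a transcription start. Of the 56 members, 40 had an entry, with 51 promoters in all. The 8-letter core TGATGCAA, a composite site for C/EBP and ATF proteins that ATF4 is known to bind in amino acid response genes, was found on either strand in 4 of the 51 member promoters (7.84%), which belong to Slc1a4, Slc7a7 and Slc7a11, and in 0.895% of all 32851 promoters. The members' promoters are not independent, since those of 1 gene overlap, and the same site of Slc7a7 was counted in more than 1 of them. A motif of the HNF4 type, CAAAGTCCA, was found in 1 member promoter, that of Slc3a1, and in 0.475% of all promoters. Altogether 7 motifs were searched, and the octamer ATGCAAAT, the kind of site that POU factors such as the tuft cell regulator POU2F3 bind, was found in 1 member promoter, that of Slc7a11, and in 1.74% of all. A looser form of the composite site, TGATGNAA, was in 5 member promoters (9.80%) and in 3.97% of all, and a looser HNF4 type, CAAAGTNCA, was in 1 (1.96%) and in 1.41% of all. TTTATNG, of the kind bound by CDX factors, was in 2 member promoters (3.92%) and in 10.9% of all, and GATAA, of the kind bound by GATA factors, in 10 (19.6%) and in 25.4% of all.

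The stretches around the TGATGCAA sites and the CAAAGTCCA site are shown because Slc1a4, Slc7a7 and Slc3a1 are members with over 20 TPM and Slc7a11 is one with little RNA that carries the site as a pair. They are given 5′ to 3′ along the gene's strand with the motif in capitals, which reads TTGCATCA where it lies on the other strand.
Slc1a4, chr11:20332710-20332777, minus strand: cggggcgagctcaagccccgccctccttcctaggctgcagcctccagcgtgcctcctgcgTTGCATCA
Slc7a11, chr3:50443614-50443739, minus strand: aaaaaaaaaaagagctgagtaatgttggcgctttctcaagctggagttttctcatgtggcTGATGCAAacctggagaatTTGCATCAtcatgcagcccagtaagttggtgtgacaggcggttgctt
Slc7a7, chr14:54417878-54417952, minus strand: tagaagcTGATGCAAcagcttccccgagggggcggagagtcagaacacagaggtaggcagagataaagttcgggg
Slc3a1, chr17:85028248-85028346, plus strand: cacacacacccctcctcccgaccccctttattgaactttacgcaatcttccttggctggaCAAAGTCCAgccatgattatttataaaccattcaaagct

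In the Slc7a11 stretch the first site begins 66 bases and the second 47 bases before the start, and the octamer match of that gene overlaps the second. The site of Slc1a4 begins 4 bases before the start. That of Slc7a7 begins 243 bases before one of its starts and 1 base before another. The site of Slc3a1 begins 39 bases before a RefSeq start whose first bases lie in no GENCODE M21 transcript. The genes that share the TGATGCAA core did not share a level, at 30.7 TPM for Slc1a4, 22.9 TPM for Slc7a7 and 0.702 TPM for Slc7a11 on average. A match of letters is not evidence of binding, and no binding was measured.

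Members known best from the nervous system, retina or kidney were low, with no value above 3.15 TPM. Slc1a2, a glutamate carrier of glia, was at 0.02, 0, 0.16, 2.05, 0 and 0.02 TPM in replicates 1 to 6, and Slc1a3, another, was above 0 in replicate 1 alone, at 0.21 TPM. Slc1a7 (EAAT5), known from the retina, had 2.04 ± 0.853 TPM, between 0.98 and 3.15 TPM (SD, n = 6). Slc7a10, a carrier of small neutral amino acids in brain, was at 0.35 and 0.20 TPM in replicates 1 and 4 and at 0 elsewhere. Slc15a2, the peptide carrier PepT2 of kidney and brain, was at 0, 2.20, 0, 0.19, 0.89 and 1.36 TPM, which places the intestinal Slc15a1 above it in 5 of 6 libraries. Slc1a6 and Slc6a15, known from neurons, and Slc36a2 and Slc36a3 were at 0 in all libraries.

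Among members whose transport role is less well known, Slc38a6 had 2.17 ± 1.65 TPM (SD, n = 6), from 0.67 to 4.23 TPM, highest in replicates 4 and 5. Slc7a15, a rodent relative of the light chains, was at 0, 0, 2.59, 10.0, 0 and 4.50 TPM, above 0 in 3 of 6 libraries. Slc43a3, which is known to carry purine bases, was at 1.12, 0.92, 0, 1.62, 0.39 and 1.23 TPM. Slc7a12, Slc15a5, Slc38a8 and Slc38a11 were listed at 0 in all libraries, and with Slc1a6, Slc6a15, Slc7a13, Slc15a3, Slc36a2, Slc36a3, Slc38a3, Slc38a4 and Slc38a5 they make up the 13 members at 0. An exact 0 here can be a failed estimate, and of 80 genes with ribosomal protein symbols, which cells use in general, 3 were also listed at 0 in every library. Slc7a6os, the symbol in the set that names no transporter, was at 11.6, 19.6, 9.48, 11.9, 14.2 and 26.6 TPM, above Slc7a6 in all 6 libraries.

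The members varied between libraries about as much as other genes. For the 32 members that averaged 1 TPM or more the median coefficient of variation was 36.7%, against 40.1% over all 12032 such genes, and for the 16 members with at least 10 TPM it was 30.2% against 31.0% over 6986 genes. Within the set the spread was uneven. Slc6a6, Slc3a2, Slc1a5 and Slc7a7 had coefficients of variation of 8.65%, 16.7%, 17.7% and 18.1%, while Slc15a1, Slc38a6, Slc3a1, Slc6a19 and Slc7a6 had 79.1%, 76.1%, 73.7%, 71.5% and 71.3%, the highest among the members above 0 in all libraries at this level. The brush border genes Slc15a1, Slc3a1 and Slc6a19 were thus among the uneven members, as was Slc6a14, which was at 0 in some libraries. Other brush border genes were less so, with 23.4% for Slc7a9, 29.8% for Slc1a1, 37.1% for Slc6a20a and 47.7% for Slc36a1. Low genes such as Slc38a6 were uneven too. Of the 30 members with a mean of at least 1 TPM that were above 0 in all libraries, 11 (36.7%) were lowest in replicate 3, against 14.6% of all 10721 such genes, and 8 (26.7%) were highest in replicate 4, against 12.4%. Replicate 3 also had the lowest sum of tuft cell markers, 6059 TPM, and of enterocyte markers, 8057 TPM, and the part of cell composition in these counts was not tested.

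**Figure D5:**
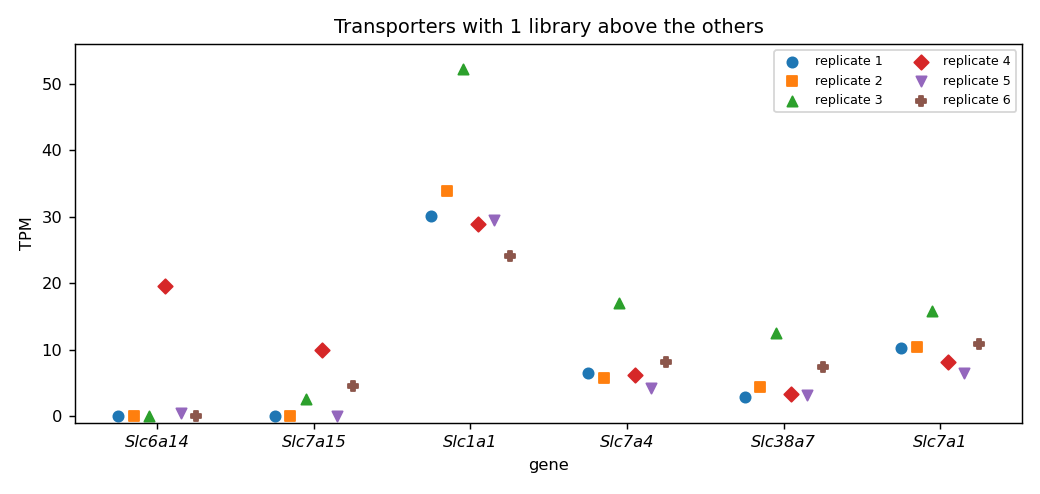
TPM by library of 6 members in which 1 library stands above the others, chosen after the values were seen; each symbol is 1 library. Replicate 4 is highest for Slc6a14 and Slc7a15, and replicate 3 for Slc1a1, Slc7a4, Slc38a7 and Slc7a1.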

How the data were processed

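RNA of sorted ileal tuft cells was measured in 6 libraries of 1 group, matched to the table's columns by replicate number. The authors used Bowtie to align reads to mouse transcripts (UCSC, mm10) and RSEM to estimate the deposited TPM per gene. RSEM divides reads shared between paralogs by estimated shares. Whether strand was used is not given in the sources used here, nor is read depth. DESeq2, which the authors also name, was not used here.

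Members were found by symbol. The members, gene lists, pairs and relations were chosen with earlier results of these data known. Sums of light chains, motifs, the genes of 1 plot, and list genes beyond the 3 most abundant were chosen after their values were seen. Some genes of the lists are not reported here. Values were compared as log2(TPM + 1) by exact sign-flip permutation within libraries (64 assignments, 8 pairs) and exact permutation of 720 pairings (4 relations), two-sided, with Benjamini-Hochberg adjustment and a threshold of 0.05. The p-values refer to these libraries only. A sign-flip p at its smallest value shows that all libraries had the same sign, not how large the spread between them was. All members at 10 TPM or more and all tested genes are given by library, and others by mean and range or by their values where some are 0. Alternatives were other pseudocounts, a filter at 0.1 TPM, 2 rescalings, the exact Mann-Whitney test (924 assignments), the median of the marker list, centring within sets of libraries and leaving out each library. Positions and exon overlaps came from GENCODE M21 (GRCm38), and promoters from RefSeq (GRCm38.p6). The tests and rescaling were tested on simulated data. Calculations ran in Python 3.11.15 (scipy 1.17.1, pandas 2.3.3, numpy 2.4.6), and matplotlib 3.10.9 drew the plots.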

Additional observations from a re-analysis of the deposited data

Results flagged for a closer look

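For 3 members 1 library stood farther from the nearest other than Dixon's 95% critical value for 6 libraries allows (the ratio of the gap to the whole range). Among 47 measures screened, 32 of them levels of members, chance alone gives about 2.35 such results at 1 in 20, so their number is no sign of more than chance. Slc6a14 was at 19.6 TPM in replicate 4 and at most 0.49 TPM elsewhere (ratio 0.975), and its mean of 3.35 TPM became 0.110 TPM without that library. Slc7a4 was at 17.0 TPM in replicate 3 and at most 8.11 TPM elsewhere (ratio 0.696). Slc1a1 was at 52.3 TPM in replicate 3 and at most 33.9 TPM elsewhere (ratio 0.654). On the log2(TPM + 1) scale the ratio was 0.868 for Slc6a14, still above the critical value, and 0.551 for Slc7a4 and 0.564 for Slc1a1, below it. In GENCODE M21, exons of Slc7a4 share 13.3% of their bases with P2rx6 and those of Slc1a1 share 31.9% with 4430402I18Rik, both on the opposite strand and at 0.0333 and 0.07 TPM on average.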

How the results depend on the processing

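No pair changed direction under any pseudocount, filter, rescaling or omission of a library. Pseudocounts and rescalings cannot change which gene of a library is higher, so that the order was kept under them shows nothing. Nor can leaving out a library reverse a pair in which the same gene was higher in every library. Only Slc3a2 minus Slc3a1 had libraries of both signs, and its mean difference stayed between 0.972 and 1.69 with 1 library left out. The exact Mann-Whitney test, which ignores the pairing, moved 2 pairs across the threshold: Slc3a2 over Slc3a1 (1.30) passed with an adjusted p of 0.0470, and Slc15a1 below Slc6a19 (-1.36) did not pass, with an adjusted p of 0.0931. With 5 libraries the smallest sign-flip p is 0.0625, so omissions gave values without a test. The relation of Slc15a1 to enterocyte markers lost its call with the median of the list (r = 0.686). It also lost the call without any 1 library (r = 0.863 to 0.950, 120 pairings in place of 720). With centring within replicates 1 to 3 and 4 to 6 (r = 0.879) the loss was fixed in advance, as 36 pairings cannot give an adjusted p under 0.05 here. The relation of Slc3a1 gained a call under median-of-ratios rescaling (r = 0.852) and without Rn45s and Gm20594 (r = 0.858). Without 1 library the r of Slc3a1 ran from 0.590 to 0.902. Except for the smaller number of pairings, the cause was not tested. Counts of members changed by no more than 1 when a library was left out, but without Rn45s and Gm20594 those at 1 TPM or more rose from 32 to 36 and those at 10 TPM or more from 16 to 20. Of 32 mean levels, 21 moved by more than 1 SD without Rn45s and Gm20594, which raises every value, and 0 under median-of-ratios rescaling. No paired analysis was possible because the 6 libraries form 1 group, with no second group that shares their replicate numbers; the pairing above is of genes within a library. As depth is unknown, zeros cannot be given a limit.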
